A study of Homo sapiens with 16 samples.

Results

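The comparison described here sets the 2 peak lists named K512R-AS against the 2 named K512R, in RNA immunoprecipitation sequencing of H1299, a human lung carcinoma cell line. The study used stable lines carrying PABPC1 with a Myc tag, as the wild-type protein or as K512R, in which an arginine replaces a lysine. Cells received 500 µM sodium arsenite or none, and RNA was then captured through the Myc tag. Same-strand peaks sharing at least 1 bp were merged to form regions, and 33176 of the 36802 regions of all 8 lists had a peak in at least 1 of the 4 lists compared. A region was called lost where it had a peak in both K512R lists and in neither K512R-AS list, and gained in the reverse case.

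The names of these lists and the titles of the samples that hold them do not match. By the names, the comparison is K512R cells with arsenite against K512R cells without it. By the titles, all 4 samples come from arsenite-treated cells with wild-type PABPC1: the lists named K512R belong to samples titled WT-AS IP, and those named K512R-AS to samples titled WT-AS input. Under that reading, a lost region is one found after immunoprecipitation and not in input RNA. The same conflict held for 6 of the 8 lists, and no paper was at hand to settle it, so the lists are called by their names below and the word arsenite is not attached to any difference. Lists named WT (titled WT IP) and WT-AS (titled WT input) are used for comparison only and the 8 samples with K512R in their title were not analysed here. The labels do not say whether the stable cells were a clone or a pool, or whether the replicates were grown separately, and the spread within a pair of lists may therefore be technical.

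PABPC1 is the main cytoplasmic protein that binds the poly(A) tails of messenger RNAs, where it supports translation and affects the stability of the message. Arsenite causes oxidative stress, halts most translation and drives messenger RNAs and their binding proteins, PABPC1 among them, into stress granules. SUMO, a small protein modifier, is attached to lysines, and an arginine in place of a lysine cannot carry it. The title of the series concerns this modification of PABPC1.

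Regions were lost more often than gained. Of the 20905 regions found in both K512R lists, 5295 (25.3%) were lost, which is 16.0% of the 33176 regions compared. Of the 17298 found in both K512R-AS lists, 2303 (13.3%) were gained, which is 6.94% of the regions compared. A further 13228 regions were kept, with a peak in all 4 lists, and 12350 had another pattern. Lost regions made up 69.7% of all changed ones. The K512R-AS lists were also the shorter ones, with 19953 and 20971 peaks against 24183 and 25111 (20462 ± 720 against 24647 ± 656, SD, n = 2 each). When the best-scored peaks were taken from each list to equal length, 3502 regions were lost and 3248 gained, and the lost ones made up 51.9% of those changed. The excess of losses over gains thus moved with the length of the lists, and its relation to sequencing depth, which is unknown for these lists, was not tested. An exact comparison of 2 lists with 2 cannot give a two-sided p below 0.333, so no p is given for any difference between the pairs.

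Single lists of the 2 pairs differed by more than the lists of a pair did. Between 34.8% and 38.5% of the regions of a K512R list were absent from a K512R-AS list, over 4 pairings. Of the regions of a K512R-AS list, 22.5% to 24.8% were absent from a K512R list. Between the 2 lists of a pair, absence ranged from 13.1% to 17.3%, below every value between the pairs. Just outside the rule lay 2382 regions found in both K512R lists and in 1 K512R-AS list, and 1767 found in both K512R-AS lists and in 1 K512R list.

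**Figure D1:**
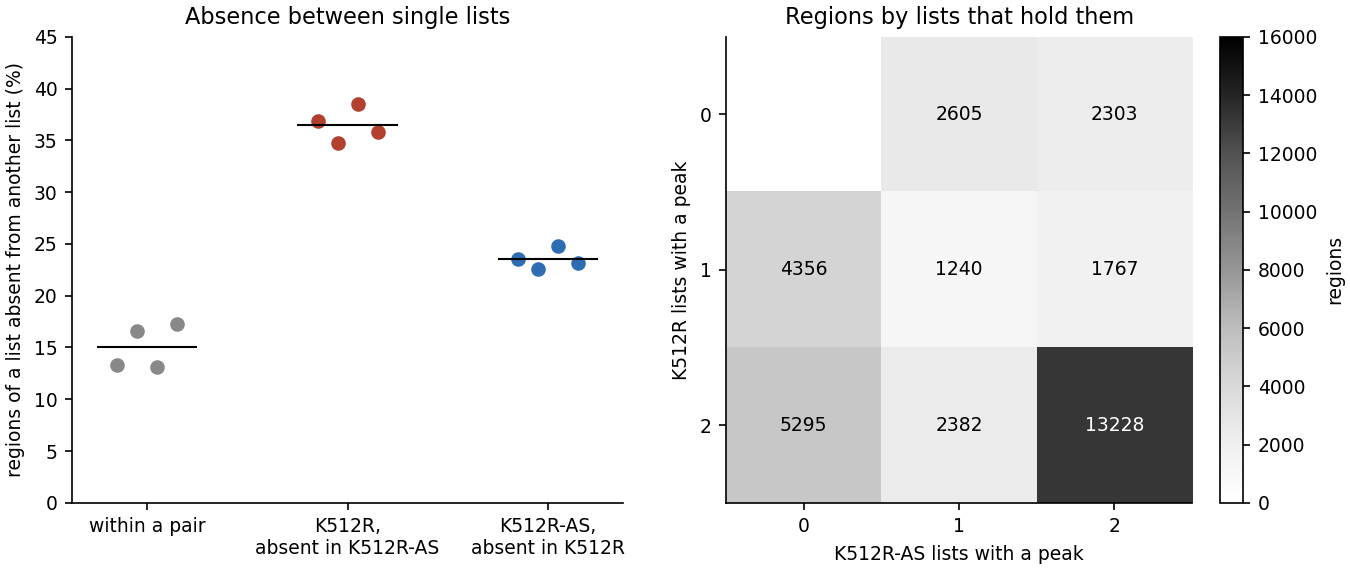
Left, the percent of a list's regions absent from another list, for the 4 comparisons within a pair and the 4 in each direction between the pairs (points; the bar is their mean). Right, the number of regions by how many K512R and K512R-AS lists hold a peak: lost regions are at bottom left (5295), gained ones at top right (2303) and kept ones at bottom right (13228).

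The peaks themselves were wider in the K512R lists. Mean peak width was 392 and 395 bp there and 336 and 333 bp in the K512R-AS lists, while the median was 190 and 189 bp against 187 and 185 bp. Peaks covered 9.48 and 9.91 Mb in the K512R lists and 6.70 and 6.98 Mb in the K512R-AS lists. The pairs did not overlap in any of these values. Wide peaks were also more frequent: 8.70% and 8.90% of peaks were over 1000 bp in the K512R lists, against 6.19% and 6.07%. Lost regions had such a wide extent in 13.2% and 13.5% of cases in the K512R lists, gained regions in 5.91% and 5.99% in the K512R-AS lists, and kept regions in 6.58% to 7.45% over the 4 lists. The median lost region nevertheless had 182 and 181 bp of peak, close to the 202 bp of kept regions and above the 158 bp of gained ones.

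Lost and gained regions were mostly weakly scored. The score is the authors' own value per peak, of unstated unit, and serves here for ranks inside each list. Regions were placed in 5 equal groups by the poorer of their 2 percentiles in the lists that define them. The lost share fell from 50.1% in the poorest-scored group to 5.24% in the best, and the gained share from 26.8% to 3.47%. Among the best-scored group, 219 of 4181 regions were lost and 120 of 3460 gained. The lost share was above the gained share in each of the 5 groups.

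**Figure D2:**
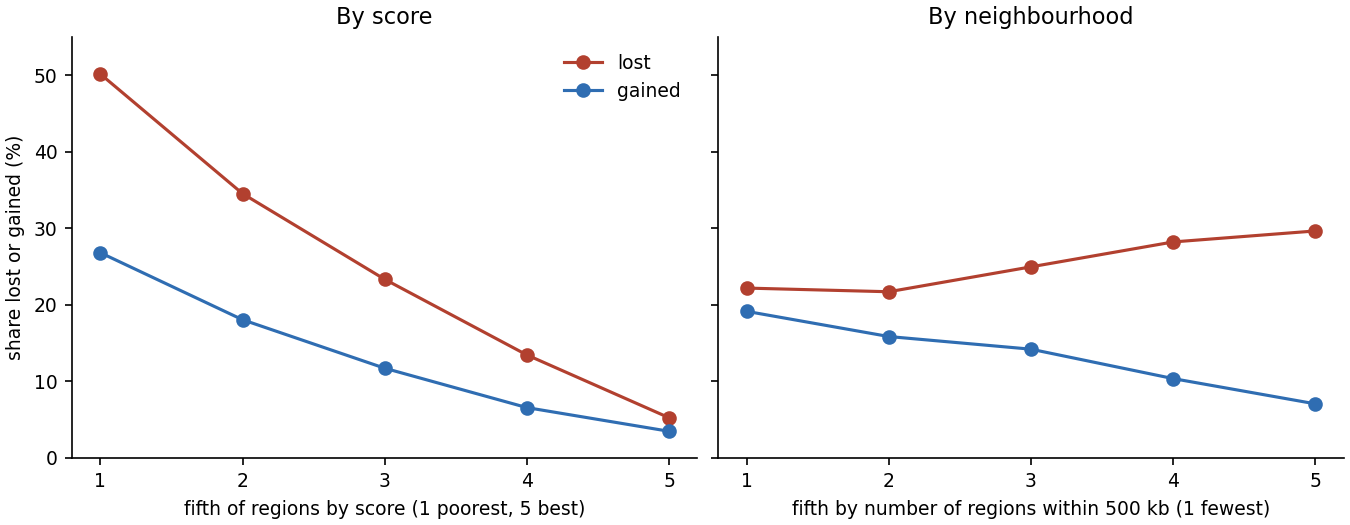
Percent of regions lost (of those in both K512R lists) and gained (of those in both K512R-AS lists) in 5 equal groups, by score at left and by the number of other regions within 500 kb at right. Both shares fall with score, to 5.24% and 3.47%; with neighbours the lost share is higher in the densest group (29.6% against 22.2%) and the gained share lower (7.05% against 19.1%).

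A small set of changed regions nevertheless held high scores. Many peaks of a list tie at a score of 3100, and the highest score was 3233.06. In 59 lost (1.11%) and 60 gained regions (2.61%) the score was at least 3100 in both lists of the pair that held them. Such scores were more frequent among kept regions. In single lists they were reached by 1.21% and 1.51% of lost, 2.78% and 3.26% of gained and 13.3% to 15.5% of kept regions. The median width was 1084 bp for these lost regions and 354 bp for these gained ones. The lost regions named next are those of this set with the widest peaks.

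The widest was chr10:72181472-72188374 on the plus strand (hg19, as all coordinates here), a single peak of 6903 bp with a score of 3100 in both K512R lists and no peak in either K512R-AS list. On chromosome 12, chr12:109176466-109183020 on the minus strand held 6555 bp of peak and scored 3100 in both K512R lists. Next in width among those also lost in the lists named WT was chr19:16660648-16664720 on the minus strand, with 4073 bp. All 3 were lost between the lists named WT and WT-AS as well, with scores there of 847.86 and 1971 for the chromosome 10 region, 1740 and 2193 for that on chromosome 12, and 2025 and 2490 for that on chromosome 19.

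The same held for chr12:124496093-124499986 (3894 bp, plus), chr12:58213710-58217510 (3801 bp, minus), chr17:80559179-80562483 (3305 bp, plus), chr7:2701302-2704436 (3135 bp, plus) and chr19:13248961-13251961 (3001 bp, plus). These 5 scored 3100 in both K512R lists, had a peak in both lists named WT and had none in the 4 lists named K512R-AS or WT-AS. Other members of the 12 behaved differently in the lists named WT and WT-AS. The region chr19:2428163-2430950 (2788 bp, minus) was lost here although it scored 3100 in all 4 of those lists. In chr16:2811562-2818262 (6701 bp, plus) both WT-AS lists and 1 of the 2 WT lists had a peak that scored 3100. The remaining regions, chr1:36805225-36807773 (2549 bp, minus) and chr20:60963686-60966167 (2482 bp, minus), had mixed patterns there.

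Gained regions of the highest score were narrower. The best was chr1:38484925-38485055 on the plus strand, only 131 bp wide, with scores of 3100 and 3183 in the K512R-AS lists and no peak in a K512R list. The widest single peak was that of chr5:133492082-133494286 on the minus strand, with 2205 bp and a score of 3100 in both K512R-AS lists. Each was gained in the lists named WT and WT-AS too, with WT-AS scores of 3100 and 3100 for the first and 3100 and 2451 for the second. The regions chr10:5807186-5808115 (930 bp, minus) and chr13:29252172-29253093 (plus, with peaks of 803 and 773 bp in the K512R-AS lists) were likewise gained in both comparisons.

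In 2 of the 12, the lists named WT and WT-AS all had a peak: chr11:8707225-8711392 (plus) and chr10:79395961-79396764 (804 bp, minus), where all 4 scored 3100. The other 6 had mixed patterns there: chr2:128603840-128605759 (1920 bp, minus), chr1:156564100-156565641 (1542 bp, minus), chr12:27908114-27909237 (1124 bp, plus), chrX:102507923-102508945 (1023 bp, minus), chr20:60962667-60963576 (910 bp, plus) and chr17:7760333-7761172 (840 bp, minus). The gained region on chromosome 20 ended just before the start of the lost region chr20:60963686-60966167, which lies on the opposite strand. Peaks on opposite strands rarely overlapped. A region of the other strand was overlapped by 6 of 5295 lost (0.113%), 7 of 2303 gained (0.304%) and 2 of 13228 kept regions (0.0151%).

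Lost regions were usually present in the lists named WT, and gained ones in those named WT-AS. A peak was found at 64.1% and 65.1% of lost regions in the 2 WT lists and at 16.3% and 19.7% in the 2 WT-AS lists. Gained regions showed the mirror image, with 15.8% and 15.5% in the WT lists and 71.6% and 73.3% in the WT-AS lists. Between 92.4% and 94.5% of kept regions had a peak in each of those lists. Of the 5295 lost regions, 1875 (35.4%) were lost there too, 391 were kept there and 66 were gained there. Of the 2303 gained regions, 1106 (48.0%) were gained there too, 121 were kept and 24 lost. The background in that comparison was 11.4% lost and 9.68% gained of 31216 regions. These 31216 all have a peak in at least 1 of those lists, whereas 1060 of the lost and 324 of the gained regions have none. The 2 comparisons share no list. Of the 1262 lost regions scored above the list median in both K512R lists, 659 (52.2%) were lost there too. The share kept there was also higher in these 1262, at 15.9% (201 regions) against 7.38% of all lost regions. No peak in any list named WT or WT-AS was found for 39 of the 1262 (3.09%), against 1060 of the 5295. The background of 11.4% is for regions of all scores, and whether the rise to 52.2% exceeds that of higher-scored regions in general was not tested.

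Loci with several lost regions were found alongside loci with none. Regions on the same strand no more than 10 kb apart were chained into 16307 loci, of which 9365 held a single region. In 2175 loci with at least 3 regions found in both K512R lists, 1104 (50.8%) had no lost region and 193 (8.87%) had lost all of theirs, 806 in number. Of 1798 loci with at least 3 regions found in both K512R-AS lists, 1249 had no gained region, and in 33 (1.84%) all of these regions, 110 in number, were gained. At least 5 regions were lost in 120 loci and at least 5 gained in 8. The regions of a locus may lie on the same transcript and are not independent of each other. At equal list length, 114 loci had lost all their regions and 62 had gained all.

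The locus with the most losses was chr15:40226325-40322657 on the plus strand, with 25 regions over 96333 bp. Of these, 17 were lost, 6 kept and 2 found in 1 K512R list only. The 6 kept regions were the 6 closest to the 5' end, and all 17 lost ones lay 3' of them. At the first, chr15:40226325-40226540, the score was 3100 in both K512R lists and 1159.8 and 1802 in the K512R-AS lists. At the sixth, chr15:40246105-40246185, it was 3000.5 and 3216 against 455 and 416. Scores are not on a stated common scale between lists. The best-scored lost region of the locus was chr15:40268615-40269045, with 983 and 1434 in the K512R lists. In the lists named WT and WT-AS, the same 6 regions were kept and 10 of the locus were lost.

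At chr9:124519292-124547788, also on the plus strand, all 13 regions were lost. Their peaks summed to 5997 and 5949 bp in the K512R lists and 0 bp in the K512R-AS lists, and the best score was 782 and 493. Of the 13, 11 were also lost between the lists named WT and WT-AS. In chr7:75168643-75216151 on the minus strand, 12 of 13 regions found in both K512R lists were lost, and 3 regions of the locus were lost in the other comparison. The exception had a peak in 1 K512R-AS list, at a score of 24.7 against 117 and 96.4.

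Next came, with 10 losses each, chr6:33636751-33657975 and chr21:38494117-38525623, both on the plus strand. In the chromosome 21 locus a single region, chr21:38504982-38505066, was kept, with scores of 997 and 1019 in the K512R lists and 153 and 214 in the K512R-AS lists. It was the best-scored region of its locus in the K512R lists. Among the 10 loci named, those with 9 lost regions were chr11:9160375-9202631 (minus), chr17:17030016-17064670, chr22:41716659-41747650, chr22:50845118-50883518 and chr6:157488174-157525130 (all plus). Ties were broken by fewer kept regions, so other loci may have as many losses. In the last of these all 9 regions were lost, and 5 of the 9 were lost in the other comparison.

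Runs of gained regions were shorter. The longest was chr6:111303519-111345530 on the plus strand, where 7 of 8 regions were gained and the eighth, at the 3' end, had a peak in both K512R-AS lists (1246 and 1417) and in 1 K512R list (82.4). Of these regions, 6 were gained in the lists named WT and WT-AS. At chr9:75766647-75785310 on the plus strand 6 of 7 were gained. The best-scored gained region there, chr9:75784967-75785310, had scores of 2234 and 2440.04 in the K512R-AS lists. The region that was not gained, chr9:75772918-75773517, scored 3100 in the first K512R-AS list and had no peak in the second. All 5 regions of chrX:114243880-114252258 on the minus strand were gained in both comparisons, with scores from 69.7 to 442 in the first K512R-AS list and from 237 to 485 in the second.

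Some gained runs adjoined kept regions. In chr10:106014744-106037874 on the plus strand the 2 regions closest to the 5' end were kept, with scores of 371 and 476 in the K512R lists and 3024 and 3100 in the K512R-AS lists at the first, and the 5 regions 3' of them were gained. In chr20:5080484-5107268 on the minus strand the order was the opposite. There the 5 gained regions were closest to the 5' end, and the 3 kept ones, which scored 3100 in all 4 lists, lay 3' of them. A count of 5 gained regions was also reached at chr9:102768788-102784508 (minus), chr6:144164508-144184943 (plus) and chr1:156278752-156303434 (minus). The remaining loci named, chr10:126089409-126107545 and chr11:18110877-18127638 (both minus), had 4, and other loci may have as many.

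**Figure D3:**
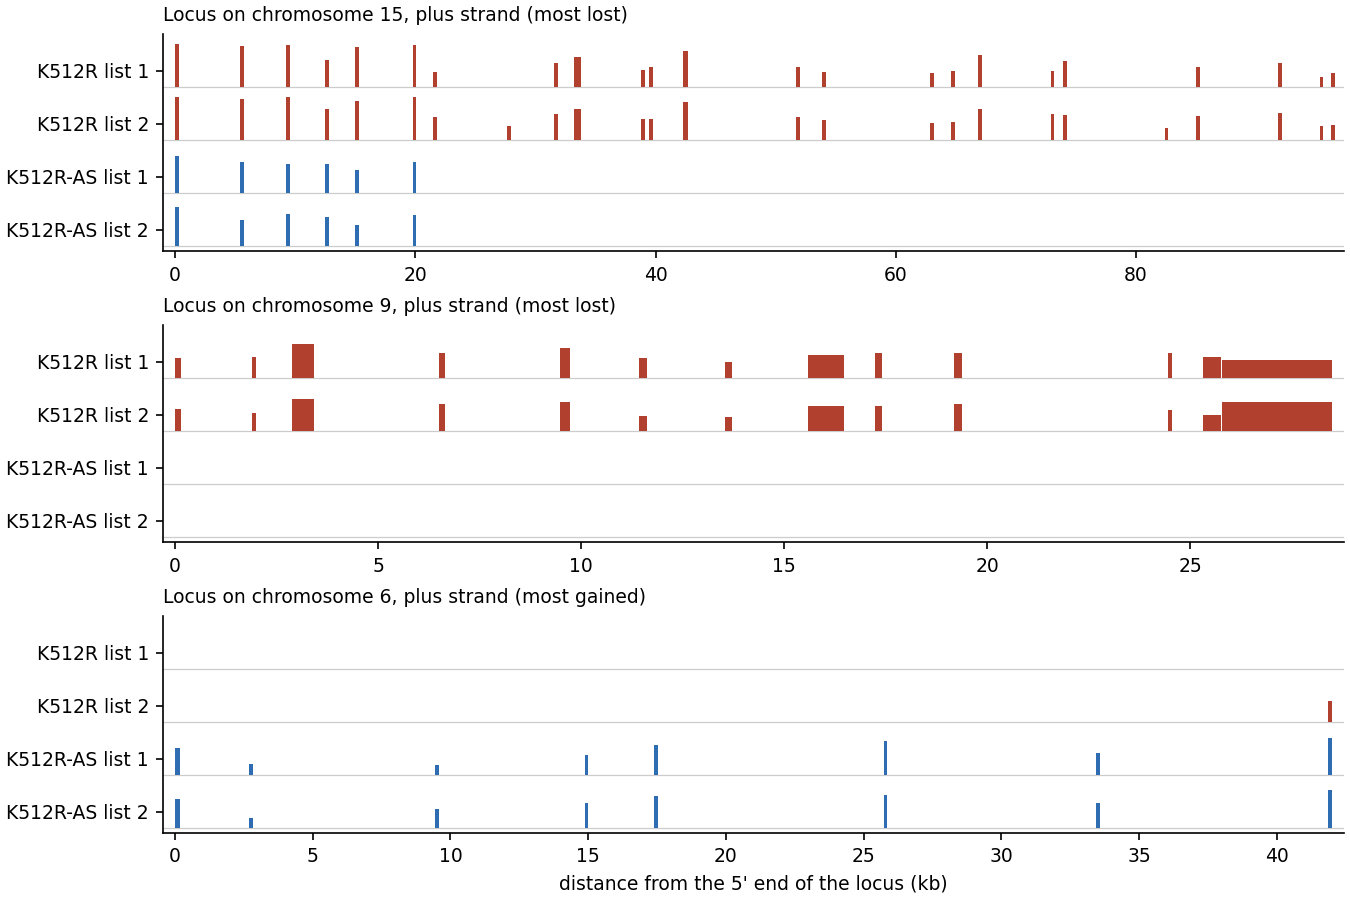
Regions with a peak in each of the 4 lists at 3 loci, by distance from the 5' end of the locus in kb. Bars span the joined region (narrow ones are drawn at a minimum width) and their height rises with the log10 of the score; the chromosome 15 locus keeps its 6 regions closest to the 5' end, the chromosome 9 locus keeps none of 13, and the chromosome 6 locus gains 7 of 8.

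Of the 16307 loci, 3349 held a lost region, 1826 a gained one and 118 both. The 9365 loci with a single region could not hold both, and the count of 118 was not tested against these numbers. Among the 118, 5 of those with at least 2 gained regions were examined. At chr17:7750423-7765600 on the plus strand, 3 regions were lost and 2 gained. Among them, chr17:7762700-7765600 was lost at scores of 1499 and 1606, and chr17:7758763-7759417 was gained at 2872 and 2185. None of the regions there was lost, gained or kept by the same rule in the lists named WT and WT-AS. The others were chr2:96991062-97020126 (2 lost, 2 gained), chr12:58166383-58186856 (1 lost, 3 gained), chr2:99937997-99952860 (1 lost, 2 gained) and chr1:207494817-207504641 (1 lost, 2 gained).

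Within loci, the regions closest to the 5' end changed least often. In all loci of at least 3 regions, 21.9% of those closest to the 5' end were lost, 29.1% of inner regions and 30.2% of those closest to the 3' end. For gained regions the shares were 8.40%, 11.97% and 17.4%. The 3' share exceeded the 5' share by 8.28 percentage points for losses and 8.95 for gains, while inner and 3' regions were lost at nearly the same rate. In the 878 loci of at least 3 regions that had lost some and not all of them, the shares were 32.2%, 42.5% and 52.7% in the same order. In 516 loci that were gained in part, they were 22.9%, 33.6% and 54.1%. The lost regions formed an unbroken block at the 3' end in 314 of the 878 loci and at the 5' end in 161. For gained regions these counts were 226 and 82 of 516. Region width and score moved with position: in loci lost in part the median width was 180 bp at the 5' end and 336.5 bp at the 3' end, and the median of the poorer score percentile was 51.9 and 49.0. In loci gained in part the widths were 185 and 225.5 bp and the score percentiles 64.5 and 47.4, and gained shares fall with score. The part of width and score in these differences was not tested.

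The share of lost regions differed among chromosomes. It was highest on chromosome 22, with 214 of 580 regions (36.9%), then on Y, with 13 of only 40 (32.5%), and on chromosome 17, with 345 of 1102 (31.3%). It was lowest on X, with 103 of 641 (16.1%), followed by chromosome 5 (19.6%) and chromosome 13 (20.2%). Gained shares were highest on chromosomes 13 (82 of 403, 20.3%), 2 (18.5%) and 14 (17.4%). They were lowest on Y (0 of 31), 19 (59 of 1138, 5.18%) and 16 (8.28%). The contrast between chromosome 22 and X was present among regions in the upper part of the score range (20.5% against 5.70% lost) and in the lower part (53.7% against 26.2%).

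**Figure D4:**
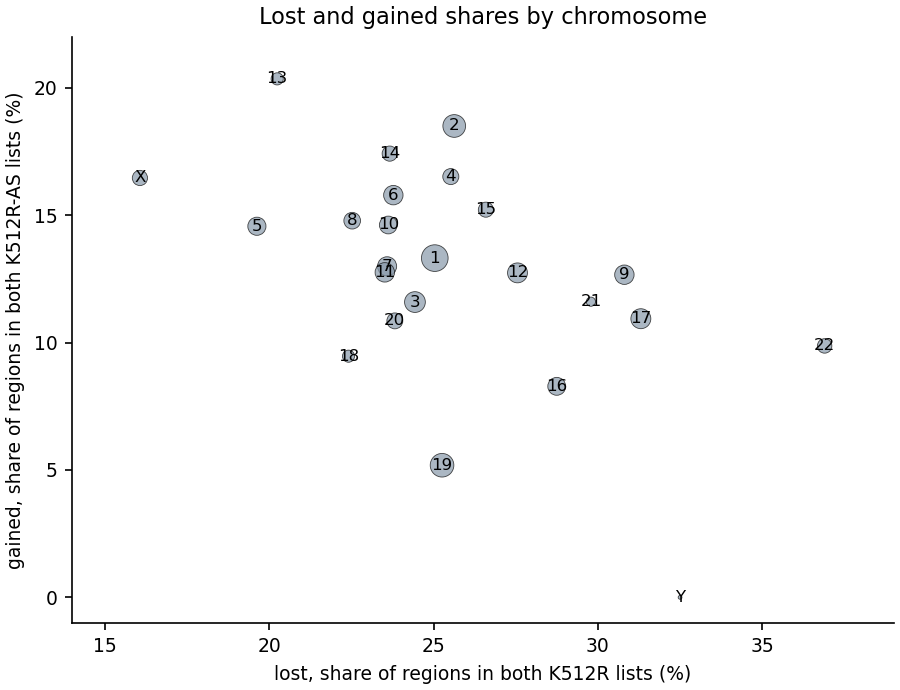
Percent of regions lost against percent gained for each of the 24 chromosomes; the area of a point grows with its number of regions in both K512R lists. Chromosome 22 has the highest lost share (36.9%), X the lowest (16.1%), and chromosome 13 the highest gained share (20.3%).

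Over the 24 chromosomes, lost and gained shares had a Pearson correlation of -0.54 and a Spearman correlation of -0.47. Lost shares here and between the lists named WT and WT-AS correlated at 0.66 and 0.64, and gained shares at 0.95 and 0.89. These are descriptions: the points come from the same lists, and chromosomes differ in how densely they hold regions and in base composition.

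The density of neighbouring regions differed between lost and gained regions. The median number of other regions within 500 kb was 30 for lost, 20 for gained and 25 for kept regions. These neighbours are the same regions that were classed, so changed regions lying close together count each other. How much this adds to the differences below was not tested. The lost share was 22.2% in the group with the fewest neighbours and 29.6% in that with the most. The gained share ran the other way, from 19.1% to 7.05%. The median score percentile was also higher in the densest groups (57.0 against 44.1 for regions in both K512R lists), while the lost share falls with score. Among upper-scored regions the lost share was 8.05% in the sparsest and 14.97% in the densest group, and among lower-scored ones 33.0% and 48.1%. Between the lists named WT and WT-AS the lost share was 18.4% in the sparsest and 21.6% in the densest group, and the gained share 22.9% and 10.7%. The difference in lost share between densest and sparsest was 7.46 percentage points, and 4.33 and 2.94 when the first or the second K512R list was left out.

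Most kept regions had the same extent in both pairs. Of 13228, 10504 (79.4%) had the same summed peak width in all 4 pairings of a K512R with a K512R-AS list. For single pairings the share of equal width was 82.7% to 83.6% between the pairs, and 85.7% and 83.7% within a pair. In 689 the width was smaller in the K512R-AS list in all 4 pairings, and in 249 it was larger. Of the 689, 508 were kept between the lists named WT and WT-AS, where 118 were also narrower and 72 were wider. Of the 249, 192 were kept there, with 44 also wider and 18 narrower. The median width of the 689 was 739 bp in the K512R lists and 552 bp in the K512R-AS lists. Of the 648 with a single peak in every list, 263 were shorter at the 3' end only and 120 at the 5' end only, by at least 20 bp. A further 9 met this bound at both ends and 256 at neither.

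The largest drop was at chr16:84695184-84701292 on the plus strand, where the peak measured 6109 and 6049 bp in the K512R lists and 706 and 1053 bp in the K512R-AS lists. The missing sequence was at the 3' end. In chr1:243663021-243668636 on the minus strand the peak fell from 5616 bp in both K512R lists to 1085 bp in both K512R-AS lists, with 4531 bp missing at the 5' end. The other 4 of the 6 were chr19:34302152-34306666 (3966 and 3971 bp against 582 and 582 bp), chr16:30748370-30752028 (3659 and 3659 bp against 230 and 380 bp), chr19:10332109-10335623 (3354 and 3496 bp against 242 and 450 bp) and chr21:44450000-44453672 (3665 and 3649 bp against 951 and 951 bp). These 6 were chosen for a fall in all 4 pairings.

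Widening was smaller. At chr5:85915170-85916578 on the plus strand, summed width was 542 and 529 bp in the K512R lists and 1409 and 1303 bp in the K512R-AS lists, all at a score of 3100. The added bases lay at the 3' end. At chr4:145915727-145916755 it was 459 and 422 bp against 944 and 1029 bp, and at chr1:150254943-150256043 484 and 390 bp against 978 and 962 bp. The remaining 3 were chr11:47236493-47238023, chrX:12993229-12994480 and chr14:66974125-66975309.

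**Figure D5:**
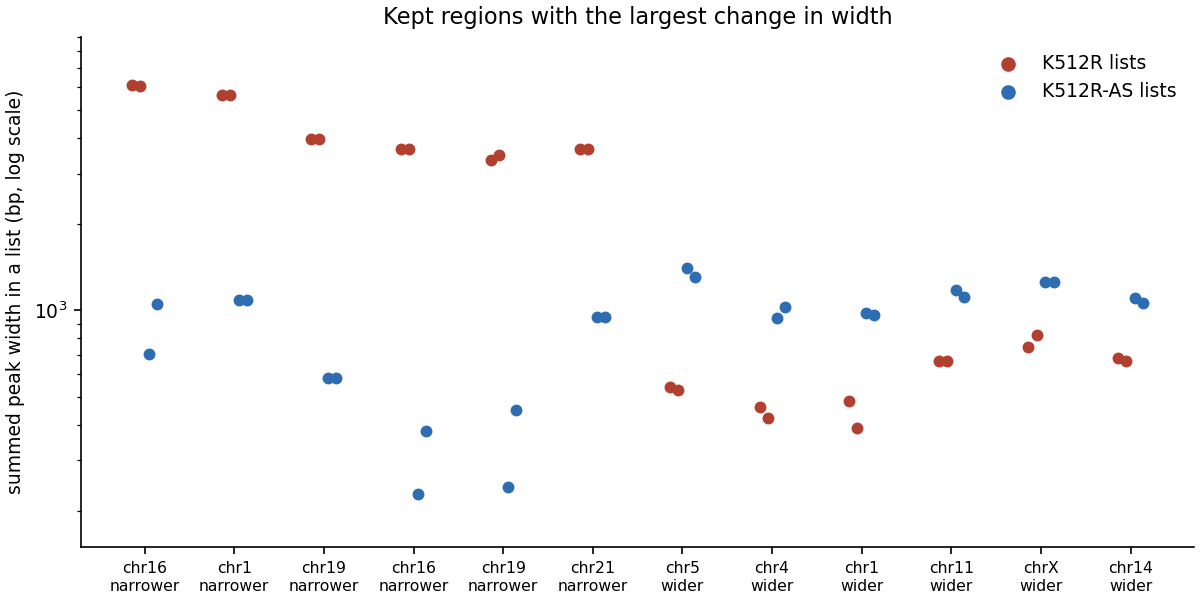
Summed peak width in bp (log axis) in each of the 2 K512R and 2 K512R-AS lists, for the 6 kept regions with the largest fall and the 6 with the largest rise. Regions were chosen for a change in all 4 pairings, so the pairs cannot overlap; the region on chromosome 16 at far left goes from 6109 and 6049 bp to 706 and 1053 bp.

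Ranks of kept regions moved in both directions. The median change in score percentile, K512R-AS minus K512R, was -1.81 points over the mean of the lists. It was -0.263 when percentiles were taken among kept regions only, and -3.59 without the second K512R-AS list. The SD of the change over regions was 21.9 to 22.8 points in the 4 pairings between the pairs, against 10.8 and 10.9 between the lists of a pair. The percentile fell by more than 25 points in all 4 pairings in 1155 kept regions and rose by more than 25 in 559. With percentiles among kept regions only, these counts were 1063 and 1005, and at equal list length 762 and 824, so the excess of falls did not hold under those settings. Without the first or the second K512R-AS list the falls numbered 2085 and 2146 and the rises 780 and 704. Without the first or the second K512R list the falls numbered 1529 and 1402 and the rises 1101 and 1199. With a list left out, fewer pairings had to show the change and more regions counted as kept. The part of each in these counts was not tested. Among the 1155, 82 were lost between the lists named WT and WT-AS, and among the 559, 50 were gained there. Of all 13228 kept regions, 343 (2.59%) were lost there and 242 (1.83%) gained there.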

How the data were processed

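Per the labels' protocols, RNA bound to the Myc-tagged protein was captured and ribosomal RNA depleted. The read trimmer cutadapt 1.9.3, the aligner HISAT2 2.0.4 and the build hg19 are listed, without settings, in the submitters' processing notes. Peak names begin with MACS, whose version, control and threshold are unstated. The 8 lists used here, each of 1 sample, hold what the authors deposited per peak: start, end (other positional values), strand and a score of unstated unit. Read depth is unknown.

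Samples were grouped by title. Peaks of all 8 lists were joined with Python 3.11.15, pandas 2.3.3 and numpy 2.4.6 at 1 bp of overlap on the same strand. Coordinates are counted from 1. Named regions are the 12 lost and 12 gained ones with the best poorer percentile of score, ties going to the larger width, the loci with the most changes (10 lost, 10 gained, 5 mixed), and the 6 kept regions with the largest fall and 6 with the largest rise in width. The members, comparisons and rules were chosen with earlier results of these data known. Place in a locus, neighbours within 500 kb, and the bounds of 25 points and 20 bp were chosen after seeing these lists. Peaks were not assigned to genes, and no sequence is shown, because the tables used here are of another build. The joining and class rules were tested on simulated data. Alternatives were score minimums, equal list length, overlap, presence rule, strand and each list left out.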

Additional observations from a re-analysis of the deposited data

Results flagged for a closer look

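For 2 of 29 list measures looked at, the 2 lists of each pair moved one way here and the opposite way between the lists named WT and WT-AS; the difference was not tested. The share of peaks on chromosome 1 was 9.44% and 9.48% in the K512R lists and 9.42% and 9.37% in the K512R-AS lists, a difference of -0.0634 percentage points. It was 9.43% and 9.35% in the WT lists and 9.44% and 9.67% in the WT-AS lists. The share on chromosome 21 was 1.10% and 1.16% in the K512R lists and 1.03% and 1.04% in the K512R-AS lists, a difference of -0.0890 points. It was 1.001% and 1.05% in the WT lists and 1.05% and 1.07% in the WT-AS lists.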

How the results depend on the processing

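With the replicate number as a block, added after seeing the data, the mean differences are by construction those reported (-4185 peaks, -59.2 bp, -2.86 Mb). The differences in peaks were -4230 and -4140 within numbers and -3212 and -5158 across them; in mean width they were -56.4 and -62.0 bp within and -59.4 and -59.1 bp across. The labels do not say that a number marks a shared culture, and classes of regions come from no test that could hold a block. Apart from the balance of falls and rises among kept regions, no signed difference changed direction under the alternatives run for it. The 12 lost and 12 gained regions named by score also kept their class with the 4 settings of joining and strand; the other settings could not change it. At equal list length, 3502 regions were lost (20.5%) and 3248 gained (19.2%), the difference in peaks was 0, in covered length -1.57 Mb, in mean width -78.7 bp, and 114 loci had lost and 62 gained all regions. With a score of 100 or more, 3398 were lost (28.0%), the gained share was 17.9%, and 121 loci had lost all; at 50 or more the shares were 27.2% and 16.1%. These minimums gave differences in peaks of -1968 and -2699, in covered length of -1.90 and -2.24 Mb and in mean width of -83.2 and -72.7 bp, in that order. With presence in at least 1 list enough, 9651 were lost (34.1%) and 4908 gained (20.9%), with 368 and 89 such loci. With each list left out in turn, 3086 to 3771 were gained (17.3% to 19.0%), the most without the first K512R-AS list, and the lost share was 29.7% to 32.2%; the rule then asks for fewer lists. Over regions above the list median, chosen after seeing the data, 33 loci had lost and 2 gained all. The median percentile change of kept regions was -0.263 ranked among kept regions and -3.59 to -1.22 with a list left out. This change was not computed at equal list length or with score minimums. At equal list length, falls of more than 25 points numbered 762 and rises 824, the reverse of the order reported. The contrasts of place in a locus, neighbours and chromosome kept their sign in the 6 added settings run for each. Depth is unknown, so absence of a peak does not show absence of RNA.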
